A study of Mus musculus with 14 samples.

Results

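The step from the corpus to the cauda of the mouse epididymis was described in whole tissue, across mature microRNAs (miRNAs), from 5 of the 14 small RNA libraries of the series. The corpus was represented by 2 libraries and the cauda by 3, with tissue pooled from 3 mice per replicate. Fewer replicate pools per region were described than there are cauda libraries, so some of these may share a pool. The donors were male mice of the Swiss strain, 8 weeks of age, in which the blood vessels were rinsed through with PBS before the tissue was freed of fat and cut into caput, corpus and cauda. Of the 900 mature miRNA names in the whole tissue table, 341 had a mean count above 10 in the corpus or in the cauda, and these make up the set described here. The other 9 libraries, 3 of whole caput and 6 of isolated epithelial cells (2 per region, from pools of 9 to 12 mice), entered only where a value needed a neighbour. Whole tissue held every cell type of the duct and its wall. Removal of spermatozoa was described in the study's methods only for the epithelial preparation, so the luminal content belonged to the whole tissue samples.

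Mature miRNAs are short RNAs that guide Argonaute proteins to messenger RNAs, which they recognise mainly through the seed, the stretch of bases near their 5′ end. The epididymis is a single coiled duct in which spermatozoa leaving the testis mature on their way through the caput and corpus and are then stored in the cauda. The cauda has a wider lumen, a lower epithelium and a thicker coat of contractile smooth muscle than the corpus.

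The sequences below are those on which the results turn, taken from RefSeq (GRCm38.p6), which held a mature sequence for 292 of the 341 miRNAs. They are written 5′ to 3′ in lower case with the seed (bases 2 to 8) in capitals, and substitutions are counted from 1 at the 5′ end. The first pair fell most between corpus and cauda. Both share a seed and differ by the single substitution A17U, with miR-204-5p as the reference. Mir204 lies at chr19:22750605-22750672 (+) in an intron of Trpm3, and Mir211 at chr7:64205806-64205911 (+) in an intron of the related gene Trpm1.
miR-204-5p: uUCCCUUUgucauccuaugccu
miR-211-5p: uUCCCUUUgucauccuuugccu

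The next sequences belong to miRNAs of Hox gene clusters, in which 1 member of each near-identical pair was called and the other was not. From miR-196b-5p to miR-196a-5p the change is C12A, and from miR-10b-5p to miR-10a-5p it is A12U. Mir196b lies at chr6:52230081-52230165 (-) within an exon of a Hoxa9 transcript. Mir196a-1 lies at chr11:96265164-96265265 (+) outside annotated genes of its strand, and Mir196a-2 at chr15:102973350-102973434 (+) in a Hoxc5 intron. Mir10b lies at chr2:74726070-74726137 (+) in introns of Hoxd3 and Hoxd4 transcripts, and Mir10a at chr11:96317165-96317274 (+), with no host annotated on its strand.
miR-196b-5p: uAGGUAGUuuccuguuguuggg
miR-196a-5p: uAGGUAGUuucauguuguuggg
miR-10b-5p: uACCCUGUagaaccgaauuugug
miR-10a-5p: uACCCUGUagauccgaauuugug

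The following group shows seeds whose members did not all step alike. The first 3 share the seed of the miR-34 family, from Mir34b at chr9:51103562-51103645 (-), Mir449a at chr13:113037534-113037624 (+) in a Cdc20b intron, and Mir34a at chr4:150068454-150068555 (+) in an exon of the unclassified gene Gm37795. The next 3 share the seed of the miR-17 family, from Mir17 at chr14:115043671-115043754 (+) in an exon of the host transcript Mir17hg, and from Mir106b at chr5:138165737-138165818 (-) and Mir93 at chr5:138165523-138165610 (-), in an intron and an exon of Mcm7 transcripts. The last pair is that of Mir148a at chr6:51269812-51269910 (-) and Mir148b at chr15:103285125-103285221 (+) in a Copz1 intron.
miR-34b-5p: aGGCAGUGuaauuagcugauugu
miR-449a-5p: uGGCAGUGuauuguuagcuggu
miR-34a-5p: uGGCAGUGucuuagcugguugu
miR-17-5p: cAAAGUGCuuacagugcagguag
miR-106b-5p: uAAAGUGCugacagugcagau
miR-93-5p: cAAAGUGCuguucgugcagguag
miR-148a-3p: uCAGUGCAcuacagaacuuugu
miR-148b-3p: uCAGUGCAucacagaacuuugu

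The last group holds the miR-200 family, which falls into 2 seeds that differ by the substitution U4C, from miR-200b-3p to miR-200a-3p, and a pair from the X chromosome. Mir141 (chr6:124717914-124717985, -) and Mir200c (chr6:124718322-124718390, -) are neighbours within an intron of the antisense gene Gm15884, as are Mir200a (chr4:156054896-156054985, -) and Mir200b (chr4:156055681-156055750, -) in an intron of Ttll10. Mir743 (chrX:66776757-66776818, -) and Mir743b (chrX:66777256-66777332, -) lie in an X-linked cluster with no annotated host on their strand.
miR-200c-3p: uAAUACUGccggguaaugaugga
miR-200b-3p: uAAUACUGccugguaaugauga
miR-141-3p: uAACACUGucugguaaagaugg
miR-200a-3p: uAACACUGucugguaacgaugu
miR-743a-3p: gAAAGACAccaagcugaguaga
miR-743b-3p: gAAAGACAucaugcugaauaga

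The 5 libraries held between 1243398 and 1777731 counts, and 10 miRNAs took 73.4% to 75.7% of the counts of each. Levels are given as CPM, the count of a miRNA scaled to a common library size by the TMM method, in the order of the replicate numbers. Pearson's r of log2 CPM over the 341 miRNAs was 0.992 between the corpus libraries, 0.982 to 0.993 among the cauda libraries and 0.938 to 0.955 between regions. The corpus libraries differed from each other for some miRNAs, and miR-9-5p, a miRNA of neural cells, was at 146 CPM in corpus replicate 1 and 59.7 CPM in corpus replicate 2, against 1353 to 1546 CPM in the caput. The cauda libraries stood apart for the markers of striated muscle, whose sum was 147 CPM in cauda replicate 1, 513 CPM in replicate 2 and 1073 CPM in replicate 3.

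From corpus to cauda, 93 of 341 miRNAs changed, which is 27.3%: 49 rose (14.4%) and 44 fell (12.9%). A miRNA was called when its false discovery rate (FDR) in limma-voom was below 0.05 and its change at least 2-fold. Among the most abundant miRNAs, the smooth muscle miRNA miR-143-3p rose while miR-148a-3p and miR-10b-5p fell, and the largest fall of all 341 was that of miR-204-5p. At any size of change, 185 miRNAs (54.3%) had an FDR below 0.05. The libraries of the regions did not overlap for 261 miRNAs (76.5%), with the cauda above in 138 (40.5%) and below in 123 (36.1%). The log2 fold change had a median of 0.05 over the 341 miRNAs, quartiles of -0.57 and 0.80 and a median standard error (SE) of 0.20. For 119 miRNAs (34.9%) the 95% confidence interval of the change lay within 2-fold in both directions. The number that rose depended on the corpus libraries, with 31 rises without corpus replicate 1 and 36 without corpus replicate 2, whereas the falls numbered 44 and 45. Where 1 library was left in a region, it was assumed to vary like those of the other regions.

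**Figure D1:**
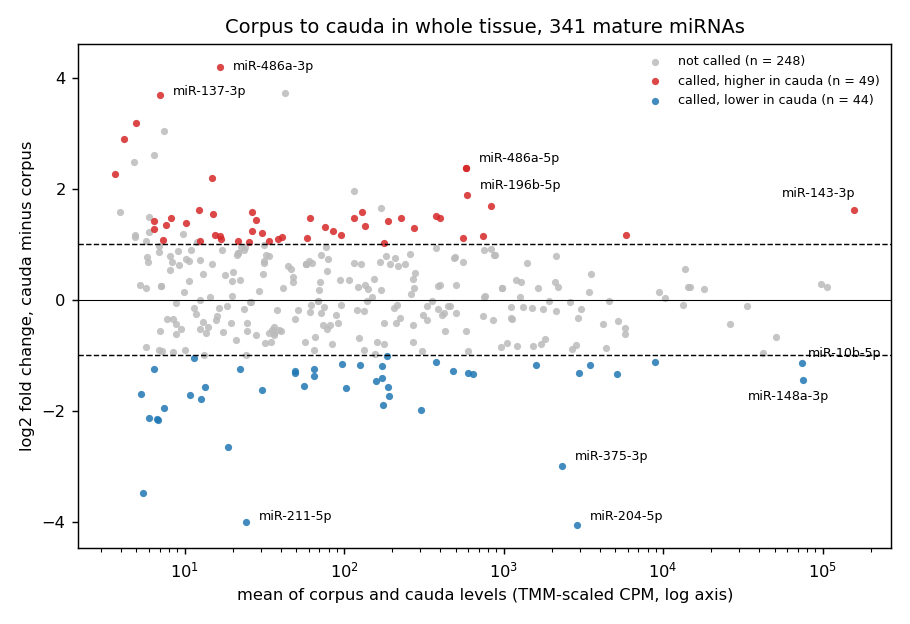
Each point is 1 of the 341 miRNAs, with its mean level in corpus and cauda (TMM-scaled CPM, log axis) against its log2 fold change, and the dashed lines mark 2-fold. The 49 rises and 44 falls were spread over all levels, and miR-143-3p was the most abundant miRNA that changed.

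The leading miRNAs of the libraries changed. miR-148a-3p in corpus replicate 1 and miR-10b-5p in corpus replicate 2 held the first place, and miR-143-3p held it in all cauda libraries. miR-143-3p, known from smooth muscle, was at 79831 and 75738 CPM in the corpus and at 244316, 221707 and 247002 CPM in the cauda. All cauda libraries were above both corpus libraries, and its mean share of the counts went from 8.45% to 26.08% (log2 fold change 1.61, SE 0.10, limma FDR = 2.3e-06). miR-148a-3p, abundant in secretory epithelia and liver, was at 115452 and 105512 CPM in the corpus and at 43395, 39399.8 and 38084 CPM in the cauda. It fell, from 12.0% to 4.42% of the counts (log2 fold change -1.46, SE 0.11, limma FDR = 6.4e-06). miR-10b-5p, which is encoded in the Hoxd cluster, fell from 97915 and 105526 CPM to 43219, 45669 and 49381 CPM (log2 fold change -1.14, SE 0.08, limma FDR = 6.2e-06).

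The other miRNAs among the 10 most abundant of either region stayed short of 2-fold. miR-191-5p was lower in each cauda library, by a log2 fold change of -0.96 (SE 0.10, limma FDR = 3.7e-05), as was miR-10a-5p by -0.67 (SE 0.07, limma FDR = 5e-05) and let-7f-5p by -0.44 (SE 0.08, limma FDR = 0.0013). miR-26a-5p was higher by 0.28 (SE 0.10, limma FDR = 0.031). No difference passed the threshold for miR-22-3p, miR-21a-5p or miR-181c-5p, whose log2 fold changes were 0.23, -0.12 and 0.20. Among the 58 miRNAs with a mean level of 1000 CPM or more, 2 rose and 9 fell, and the 95% confidence interval lay within 2-fold for 38. Among the 51 under 10 CPM, 9 rose and 7 fell, and the interval lay within 2-fold for 1.

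Among called miRNAs with a mean count above 50 in the higher region and no overlap between the regions, the falls were led by miR-204-5p, miR-211-5p and miR-375-3p. miR-204-5p, known from the retinal pigment epithelium and other transporting epithelia, was at 5932 and 5043 CPM in the corpus and at 287, 328 and 372 CPM in the cauda. The corpus level was 16.7-fold above that of the cauda (log2 fold change -4.07, SE 0.12, limma FDR = 4.2e-09), and the caput libraries were higher still, at 13632 to 14178 CPM. In these bulk samples, fewer cells that express a miRNA and less of it per cell cannot be told apart. miR-211-5p was at 43.3 and 48.5 CPM in the corpus and at 3.09, 1.23 and 4.13 CPM in the cauda, and fell by 4.01 on the log2 scale (SE 0.43, limma FDR = 4.5e-05). Its caput libraries were at 0.643 to 3.29 CPM, as low as the cauda, so the corpus stood out from both neighbours. The counts of miR-204-5p and miR-211-5p included fractions, as estimated counts of reads shared between similar names can. The share of miR-211-5p in the sum of both was 0.719% and 0.947% in the corpus, 0.468% to 1.097% in the cauda and 0.005% to 0.026% in the caput.

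miR-375-3p, a miRNA of endocrine and other secretory cells, was at 5363 and 2995 CPM in the corpus and at 547, 493 and 470.4 CPM in the cauda. The corpus libraries differed from each other more than the cauda libraries did, and both were above the cauda (log2 fold change -2.99, SE 0.34, limma FDR = 5.5e-05). miR-135a-5p fell from 467 and 508 CPM to 130.2, 110.2 and 130.3 CPM (log2 fold change -1.98, SE 0.18, limma FDR = 2e-05), and the scarcer miR-135b-5p fell with it, by 2.13 (SE 0.74, limma FDR = 0.032), but was not called without cauda replicate 1, cauda replicate 2 or cauda replicate 3, where its limma FDR reached 0.089. miR-138-5p, known from neurons, was at 225 and 92.5 CPM in the corpus and at 44.3, 44.3 and 54.8 CPM in the cauda (log2 fold change -1.58, SE 0.36, limma FDR = 0.0046). Without corpus replicate 1 its log2 fold change was -0.93 and it was no longer called. Its caput libraries were at 633 to 917 CPM, and the higher corpus library was the one in which miR-9-5p was higher too. The part of that difference in the result was not tested. miR-330-5p (-1.62), miR-672-5p (-1.58), miR-153-3p (-1.55) and miR-17-5p (-1.47) were also among the 12 largest falls above the count limit of 50, with SEs of 0.13 to 0.22 and limma FDRs of 1.5e-05 to 0.0002.

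Levels along the duct did not all run one way, as seen with the caput libraries set beside the step. The corpus libraries are shared between the 2 steps, so the values are given only side by side. miR-190a-5p, which lies in an intron of Tln2, was at 246 and 309.6 CPM in the corpus, at 71.5, 71.4 and 79 CPM in the cauda and at 18.6 to 22.5 CPM in the caput. It fell by 1.90 from corpus to cauda (SE 0.14, limma FDR = 6.2e-06) and still lay 1.84 above the caput in the cauda (SE 0.18, limma FDR = 8.3e-06). miR-184-3p, known from the lens and cornea, had the same order, with 260.0 and 327 CPM in the corpus, 77.6 to 99.3 CPM in the cauda and 11.7 to 23.2 CPM in the caput (corpus to cauda -1.73, SE 0.18, limma FDR = 3.7e-05). Of the miR-17-92 cluster, miR-92a-3p was highest in the corpus too, at 888 and 828 CPM against 331 to 359.6 CPM in the cauda and 249 to 268 CPM in the caput. In the other direction, miR-31-5p, a miRNA of basal and squamous epithelia, was lowest in the corpus, at 100.1 and 104 CPM. It was at 297, 292 and 236 CPM in the cauda (log2 fold change 1.42, SE 0.15, limma FDR = 4.7e-05) and at 263 to 314 CPM in the caput, a cauda to caput difference of -0.05 (SE 0.12, limma FDR = 0.73).

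**Figure D2:**
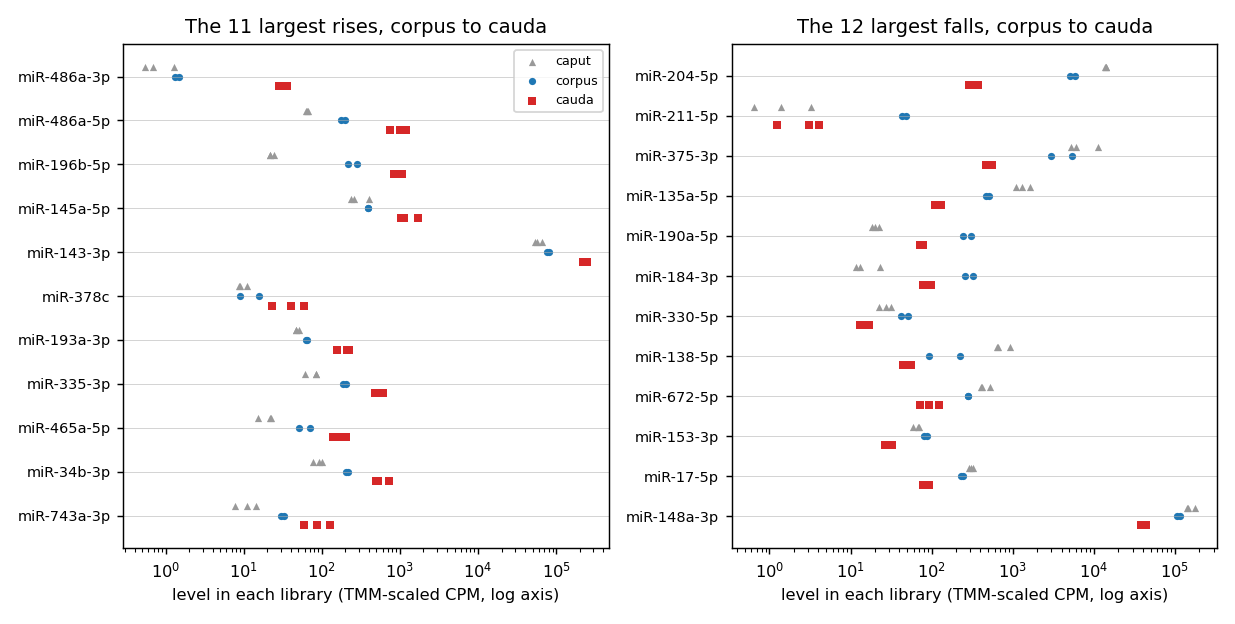
Levels (TMM-scaled CPM, log axis) of the miRNAs with the largest rises and falls among those with a mean count above 50 in the higher region, 1 point per library, with miR-486b-5p left out since its values equal those of miR-486a-5p. Only called miRNAs whose libraries did not overlap between the regions were chosen, so the gap between cauda squares and corpus circles follows from the choice, and the caput triangles lie below both corpus circles for miR-211-5p, miR-190a-5p, miR-184-3p, miR-330-5p and miR-153-3p among the falls.

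Above the same count limit of 50, the rises were led by miR-486, a miRNA abundant in red blood cells and muscle, and by miR-196b-5p. Some scarcer miRNAs, given further on, had larger log2 fold changes than miR-196b-5p. miR-486a-3p had 2 counts in each corpus library and 61, 46 and 61 counts in the cauda, a ratio of 22.9 with an exact 95% interval of 8.76 to 84.8 that covers counting error only. miR-486a-5p was at 196 and 174 CPM in the corpus and at 741, 1005 and 1201 CPM in the cauda (log2 fold change 2.38, SE 0.20, limma FDR = 1.1e-05). The name miR-486b-5p carried identical values, so the pair counts as 2 of the 49 rises but cannot be told apart. miR-196b-5p was at 217 and 280.1 CPM in the corpus and at 833, 879.7 and 1076 CPM in the cauda, and rose with a log2 fold change of 1.90 (SE 0.15, limma FDR = 7.7e-06). Its caput libraries were at 21.4 to 24.7 CPM. The opposite arm, miR-196b-3p, had 2 counts over both corpus libraries and 49 over the cauda (ratio 13.3, interval 3.5 to 113). Like miR-486a-3p, miR-196b-3p passed the count limit only through the cauda, where it was higher.

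miR-196a-5p, which differs from miR-196b-5p at a single base outside the seed, was at 224 and 247 CPM in the corpus and at 274, 322 and 319.5 CPM in the cauda. Its log2 fold change was 0.37 (SE 0.12, 95% interval 0.09 to 0.64, limma FDR = 0.031), short of 2-fold. The miR-10 pair showed the reverse direction and a smaller gap, with miR-10b-5p called at -1.14 and miR-10a-5p at -0.67. Fractions occurred in the counts of both miR-10 names but not in those of the miR-196 pair. Whether the members of each pair differed in their step was not tested.

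Further rises were those of miR-193a-3p, from 65 and 63 CPM to 155 to 222 CPM (log2 fold change 1.59, SE 0.19, limma FDR = 7.2e-05), and of miR-365-3p (1.24, SE 0.22, limma FDR = 0.0011). miR-193b-3p, with the same seed as miR-193a-3p, was higher by 0.81 (SE 0.21, limma FDR = 0.0097). miR-335-3p, from an intron of the imprinted gene Mest, was at 201 and 188 CPM in the corpus and at 574, 612 and 484 CPM in the cauda (log2 fold change 1.51, SE 0.16, limma FDR = 3.7e-05). miR-378c went from 8.97 and 15.7 CPM to 22.6, 40 and 59.5 CPM (log2 fold change 1.59, SE 0.50, limma FDR = 0.021) and was no longer called without either corpus library, at 1.25 and 2.01.

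Markers of the other cell types of the tissue moved unequally. All 4 smooth muscle miRNAs rose, against 14.4% of all miRNAs tested, with a median log2 fold change of 1.54, and 3 of 3 with at least 10 counts in every library. Beside miR-143-3p these were miR-145a-5p, at 386 and 392 CPM in the corpus and 1044, 1117 and 1689 CPM in the cauda (1.69, SE 0.24, limma FDR = 0.00027), and miR-145a-3p, at 125 and 117 CPM against 304, 323 and 382 CPM (1.47, SE 0.15, limma FDR = 3.7e-05). The fourth, miR-143-5p, was at 14.1 CPM or less throughout and was lost without corpus replicate 1 (FDR = 0.085 in limma), corpus replicate 2 (0.18) or cauda replicate 3 (0.059).

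Of 7 miRNAs listed for red blood cells, 6 were measured and 4 rose, against 14.4% of all miRNAs: miR-486a-5p, miR-486b-5p, miR-486a-3p and miR-144-5p. The last 2 passed the count limit only through the cauda, and the first 2 are 1 measurement under both names, so with at least 10 counts required in every library 4 members were left and that measurement alone rose. miR-451a, the most specific of them, was at 58.3 and 42.6 CPM in the corpus and at 69, 163 and 81.9 CPM in the cauda, with a log2 fold change of 0.95 (SE 0.36, limma FDR = 0.043), just short of 2-fold. miR-144-3p, from the same locus, was at 0.85 (SE 0.38, limma FDR = 0.085). Between 3 and 6 of the 6 were called as single libraries were left out, with 6 called without cauda replicate 1. The summed level of the list was 413 to 474 CPM in the corpus and 1622 to 2562 CPM in the cauda.

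Striated muscle miRNAs had a median log2 fold change of 2.55 over 6 members, of which none was called (27.3% of all miRNAs were). Of the 6, 4 passed the count limit only through the cauda. The median was 1.76 over the 2 members left with at least 10 counts in every library, and 1.33 over all 6 without corpus replicate 1. miR-133a-3p was at 38.8 and 101 CPM in the corpus and at 70, 254 and 494 CPM in the cauda, and miR-1a-3p at 21.7 and 58.4 CPM against 54, 161 and 355 CPM. The regions overlapped for both. miR-208b-3p, of heart and slow skeletal muscle, was at 0.747 and 11.8 CPM in the corpus and at 15.4, 59.7 and 163 CPM in the cauda (log2 fold change 3.73, SE 1.90, limma FDR = 0.12). edgeR called 4 of the 6 and DESeq2 4, limma with the replicate number as a block called 5, and without cauda replicate 1 limma called all 6. These fits called 22.6% to 29.6% of all miRNAs. miR-486 is known from muscle as well as blood, so the levels of both lists stand beside its rise, and their part in it was not tested.

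Of the other marker lists, leukocyte miRNAs had a median log2 fold change of 0.70, and miR-223-3p alone of 5 rose (14.4% of all miRNAs did), from 20.2 and 28.9 CPM to 60.7, 41.2 and 56.6 CPM (2.14-fold, SE of the log2 fold change 0.30, limma FDR = 0.012). It was not called without corpus replicate 1 (log2 fold change 0.88) or without cauda replicate 1 (0.98). Endothelial miR-126a-5p and miR-126a-3p were higher by 0.22 and 0.36 (limma FDRs of 0.091 and 0.021), and the 6 stromal miRNAs of the miR-199 and miR-214 loci had a median of 0.06, with no call (27.3% of all miRNAs were called). Of the 6, miR-199a-3p and miR-199b-3p carried identical values, so 1 measurement counts as 2 in that median. Among 5 miRNAs of basal epithelium, 1 rose, miR-31-5p (14.4% of all miRNAs did), whereas miR-205-5p was lower in the cauda, at 1159, 941 and 1213 CPM against 2038 and 1882 CPM (-0.83, SE 0.14, limma FDR = 0.00062).

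**Figure D3:**
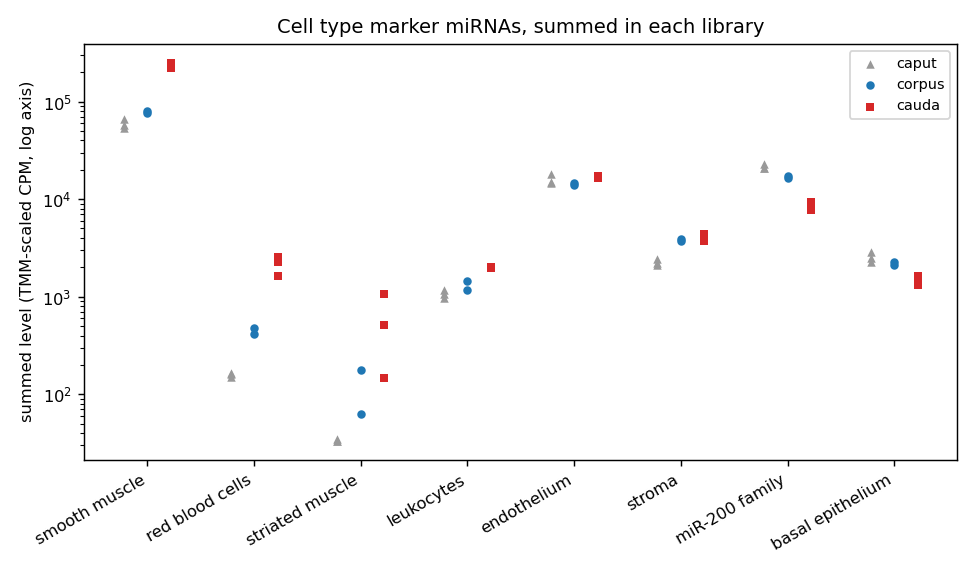
Summed level (TMM-scaled CPM, log axis) of the miRNAs of each cell type list in each whole tissue library, with 1 point per library. Smooth muscle, red blood cell, leukocyte and endothelial sums are higher in every cauda library than in either corpus library, the striated muscle sums of the 3 cauda libraries run from 147 to 1073 CPM, and the miR-200 sums are lowest in the cauda.

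The miR-200 family, which maintains the epithelial state by repressing Zeb transcription factors, was lower in the cauda. Of 9 members, 3 fell (12.9% of all miRNAs did) and the other 6 did not pass, with a median log2 fold change of -0.84, and the cauda libraries lay below both corpus libraries for 8 (36.1% of all miRNAs). miR-200c-3p fell from 4108 and 4343 CPM to 1846, 1391 and 1889 CPM (-1.32, SE 0.12, limma FDR = 2.2e-05), and its neighbour miR-141-3p from 2200.2 and 2212 CPM to 1030.3, 905 and 982 CPM (-1.18, SE 0.09, limma FDR = 6.4e-06). The third was the other arm of the latter hairpin, miR-141-5p (-1.13). From the chromosome 4 locus, miR-200a-3p (-0.87, SE 0.10), miR-200b-3p (-0.79, SE 0.12) and miR-429-3p (-0.84, SE 0.16) were lower without reaching 2-fold. All 3 calls thus came from the chromosome 6 locus, and each of the 2 seeds had members with and without a call. Without corpus replicate 2 the median over the 9 was -1.04. Whether the 2 loci differed in their step was not tested.

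The miR-183, miR-96 and miR-182 cluster on chromosome 6, known from sensory epithelia, was lower as well. miR-182-5p fell from 7321 and 7547 CPM to 2851, 2842 and 3077 CPM (-1.35, SE 0.11, limma FDR = 1.1e-05) and miR-96-5p from 702 and 655 CPM to 288, 243 and 309 CPM (-1.28, SE 0.12, limma FDR = 2.4e-05). miR-183-5p was lower by 0.85 on the log2 scale (-0.85, SE 0.16), short of 2-fold. Thus 2 of 3 fell, against 12.9% of all miRNAs, and all 3 were below the corpus in every cauda library, as were 36.1% of all miRNAs.

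Of 12 members of the miR-17-92 cluster and its paralogs, known for their role in proliferation, 4 fell (against 12.9% of all miRNAs) and none rose, with a median of -0.44. miR-17-5p fell from 227 and 241 CPM to 92.1, 85 and 77.2 CPM (-1.47, SE 0.13, limma FDR = 1.5e-05), miR-92a-3p fell by 1.31 (SE 0.10), and miR-106b-5p by 1.02 (SE 0.14). miR-93-5p, which carries the same seed as miR-17-5p and miR-106b-5p, stayed at 479 and 486 CPM in the corpus and 467, 433 and 439.8 CPM in the cauda, with a log2 fold change of -0.11 and a 95% interval of -0.32 to 0.10. miR-19b-3p (-0.12), which has a locus in the chromosome 14 cluster of miR-17-5p, did not pass either, and miR-25-3p (0.32, limma FDR = 0.015) was slightly higher. miR-17-3p was the fourth fall, at 15.7 CPM or less, and the count of 4 became 2 without corpus replicate 2.

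The rodent miRNAs of the Sfmbt2 intron, of which 9 passed the count limit, had a median of -0.93 and 3 falls (12.9% of all miRNAs fell). Of the 9, 3 passed the limit only through the corpus, 1 of the falls among them, and 2 only through the cauda. The latter 2, miR-669a-3p and miR-669o-3p, carried identical values and are 1 measurement. miR-467a-5p fell from 71.7 and 69.5 CPM to 32.4, 20.9 and 32.4 CPM (-1.31, SE 0.20, limma FDR = 0.00034), after 229 to 245 CPM in the caput. miR-467c-5p and miR-467d-5p fell with it (-1.57 and -1.72), while miR-669c-5p, at 17.2 and 18.4 CPM against 9.26, 6.77 and 10.6 CPM (limma FDR = 0.016), lay at the 2-fold limit without passing it.

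The X-linked cluster at chrX:66776757-66839125, whose miRNAs are known from testis and germ cells, was higher in the cauda. Of its 20 members measured, 10 rose (14.4% of all miRNAs did) and none fell, and the cauda libraries lay above both corpus libraries for 17 (40.5% of all miRNAs). The median log2 fold change was 0.91, against 0.05 for all miRNAs. The names miR-465a-3p, miR-465b-3p and miR-465c-3p carried identical values, so 1 measurement counts as 3 of the 20 and of the 17, though not of the 10. Of the rises, miR-743a-5p and miR-463-5p passed the count limit only through the cauda, and with at least 10 counts required in every library 6 of 17 members rose. The most abundant, miR-881-3p, was at 431 and 487 CPM in the corpus and at 1251, 826 and 997 CPM in the cauda (1.14, SE 0.18, limma FDR = 0.00049). miR-743b-3p rose from 319.8 and 371 CPM to 1021, 584 and 683 CPM (1.11, SE 0.22, limma FDR = 0.002), and miR-465a-5p from 51.5 and 70.2 CPM to 202, 139 and 171 CPM (1.48, SE 0.21, limma FDR = 0.00028). miR-871-3p (0.77, limma FDR = 0.067) and miR-470-5p (0.75, limma FDR = 0.033) were not called.

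Cauda replicate 1 held the highest sum of this cluster, 5667 CPM, against 3461 and 4400 CPM in the other cauda libraries and 2222 and 2359 CPM in the corpus. Without it 5 of the 20 were called, miR-881-3p at 0.99 and miR-743b-3p at 0.87 no longer among them, and without cauda replicate 2 there were 11. DESeq2 called 6. For 1 member chosen after its values were seen, miR-465b-5p, the fit and the means differ in sign: it was at 9.71 and 12.5 CPM in the corpus and at 0, 43.1 and 50.1 CPM in the cauda, with a log2 fold change of -0.72 and an SE of 1.82.

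The imprinted Dlk1-Dio3 region of chromosome 12 behaved alike in direction. Of 34 members, 8 rose (14.4% of all miRNAs did) and none fell, with a median of 0.92, and the cauda was above the corpus in all libraries for 30 (40.5% of all miRNAs). The limit was passed only through the cauda by 13 of the 34, with 4 of the 8 rises among them, and with at least 10 counts required in every library 3 of 18 members rose. Its most abundant members moved by less than 2-fold, with miR-127-3p at 2933 and 3001 CPM in the corpus and 4169, 4093 and 4079 CPM in the cauda (0.47, SE 0.09, limma FDR = 0.0012) and miR-411-5p at 1564 and 1541 CPM against 2589, 2999 and 2501 CPM (0.79, SE 0.10, limma FDR = 0.0001). miR-434-3p (0.80) and miR-410-3p (0.94) were likewise higher. The 8 calls came from scarcer members, such as miR-376c-3p, with 3.74 and 6.56 CPM in the corpus and 25.7, 26.5 and 21.2 CPM in the cauda (2.19, SE 0.36, limma FDR = 0.00066). The count was 3 without corpus replicate 1 or by DESeq2, 4 without corpus replicate 2 and 12 without cauda replicate 3.

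The miR-34b and miR-34c cluster and miR-449a, known from multiciliated cells and germ cells, rose together. miR-34c-5p, by far the most abundant, was at 3249 and 3984 CPM in the corpus and at 8873, 7335 and 8204 CPM in the cauda (1.17, SE 0.15, limma FDR = 0.00012). miR-34b-3p rose by 1.47 (SE 0.18), miR-34b-5p by 1.29 (SE 0.16), miR-34c-3p by 1.33 (SE 0.19) and miR-449a-5p by 1.11 (SE 0.25), the last of these from 35.9 and 37.4 CPM to 98.8, 84.3 and 60.1 CPM. miR-34a-5p, which carries the same seed from a locus of its own, was instead lower in each cauda library, at 111, 78.8 and 96.1 CPM against 148 and 157 CPM (-0.69, SE 0.17, limma FDR = 0.0077). Thus 5 of 6 measured members rose, against 14.4% of all miRNAs, and the exception differed in sign. Without cauda replicate 1 the count was 4, with miR-449a-5p at 0.95.

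Several of the listed families held no call, against 27.3% of all miRNAs, a share at which families of a few members can also be without one. None of 19 let-7 and miR-98 miRNAs was called (median -0.29), nor of 4 in the miR-29 family (-0.34), 11 in the miR-30 family (-0.17), 8 in the miR-23, miR-27 and miR-24 group (0.60), 7 in the miR-15, miR-16, miR-195 and miR-497 group (0.08) or 6 in the miR-181 family (0.09). Of the 19, let-7a-1-3p and let-7c-2-3p carried identical values and are 1 measurement. The members of these families were not all level between the regions. miR-27b-3p was at 11758 and 10319.9 CPM in the corpus and 15330.3, 15356 and 18166 CPM in the cauda (0.56, SE 0.11, limma FDR = 0.0014), and miR-29a-3p was lower by 0.44 on the same scale (-0.44, SE 0.09, limma FDR = 0.0022). miR-148b-3p, of the same seed as miR-148a-3p, was lower by a log2 fold change of -0.37 (SE 0.13, limma FDR = 0.033). Other families held 1 fall each, where 12.9% of all miRNAs fell. miR-99b-5p was the single call among 10 miRNAs of the miR-99, miR-100 and miR-125 group, with 12476 and 11977 CPM in the corpus and 5866, 4985 and 6113 CPM in the cauda (-1.12, SE 0.13, limma FDR = 8.5e-05), and miR-351-5p the single call of 4 in the X-linked miR-322 cluster (-1.16, SE 0.25, limma FDR = 0.003).

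**Figure D4:**
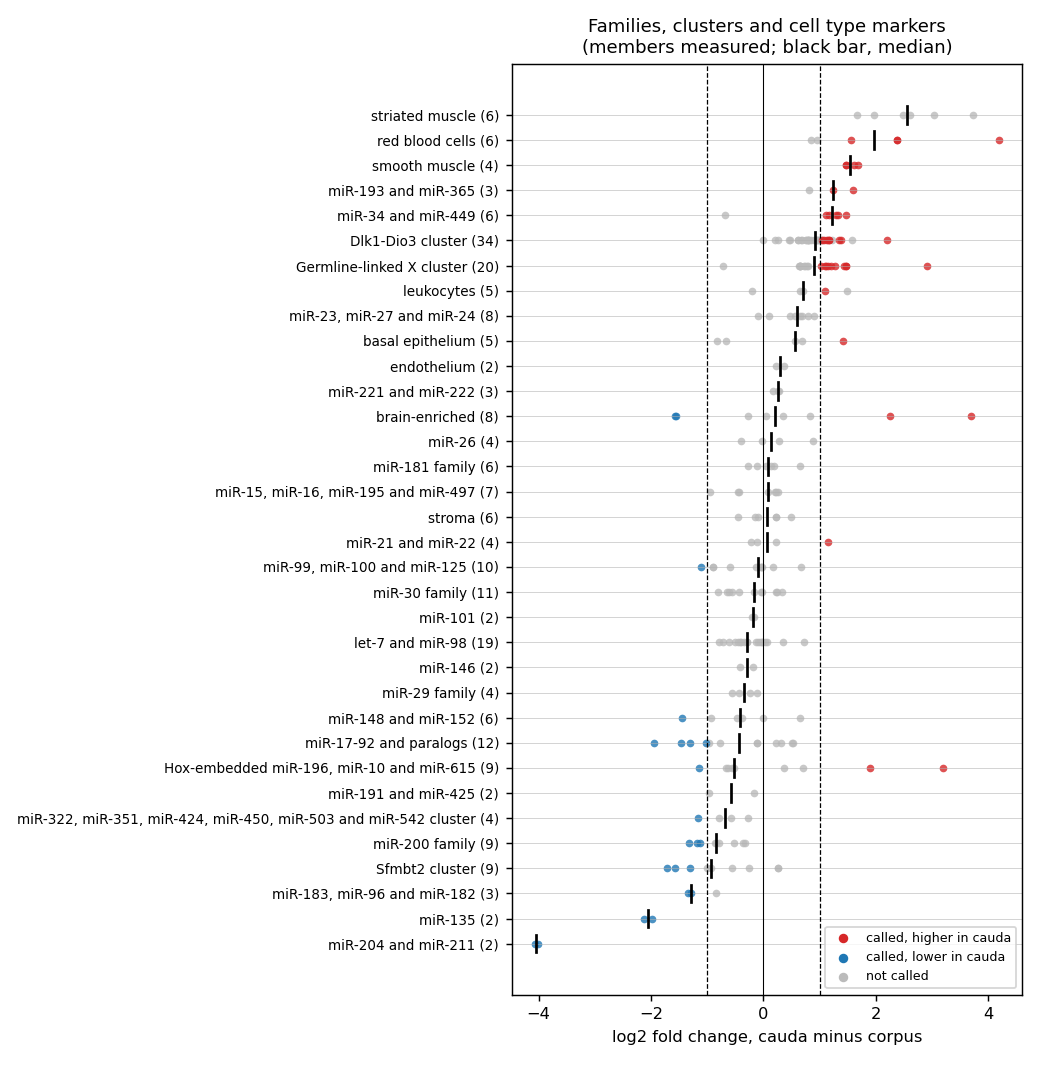
Log2 fold change from corpus to cauda of each measured member of each list, with the list's median as a black bar and the number of members in parentheses. Members of the smooth muscle and miR-34 and miR-449 lists sit mostly right of the 2-fold line, those of miR-204 and miR-211 far to the left, and those of let-7 all within the lines.

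Of the 8 brain-enriched miRNAs measured, 2 rose and 2 fell, against 14.4% and 12.9% of all miRNAs. Both that rose passed the count limit only through the cauda, and with at least 10 counts required in every library 6 members were left, of which none rose and 2 fell. Their counts were low: miR-137-3p had 2 counts over both corpus libraries and 71 over the cauda (ratio 19.3, interval 5.15 to 162.5), and miR-124-3p had 3 against 34 (ratio 6.17, interval 1.94 to 31.4). Both intervals cover counting error only. The falls were those of miR-138-5p and miR-153-3p given above. miR-9-5p was at 70, 80 and 79 CPM in the cauda, between the values of the corpus libraries, with a log2 fold change of -0.28 (SE 0.30, limma FDR = 0.43).

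By the count limit, 304 miRNAs were identified in the corpus and 325 in the cauda, 288 of them in both. The limit was set on unscaled counts, so these numbers are not corrected for depth. The corpus libraries held 1243398 and 1390826 counts, against 1457959 to 1777731 in the cauda. The 16 identified in the corpus alone and the 37 in the cauda alone were scarce, with mean counts of at most 65 and 134 in their own region. The highest of the first kind were miR-211-5p, miR-1251-5p, which fell from 35.1 and 28.9 CPM to 5.66, 8 and 2.36 CPM (-2.66, SE 0.38, limma FDR = 0.00024), and miR-8114 (-1.80, SE 0.35). The highest of the second kind were miR-208b-3p, miR-486a-3p and miR-376c-3p. Next to the limit, miR-485-5p was included with corpus counts of 3 and 2 against cauda counts of 11, 14 and 7, while miR-411-3p was left out with 1 and 4 against 16, 7 and 5.

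Both arms of a hairpin, paired by name, were measured for 86 hairpins. Both were called for 12, in the same direction each time, with 7 rises (miR-34b, miR-34c, miR-143, miR-145a, miR-196b, miR-486a and miR-743a) and 5 falls (miR-17, miR-141, miR-210, miR-672 and miR-1981). Of all single miRNAs, 27.3% were called, 14.4% rising and 12.9% falling. In 4 of the 7 one arm passed the count limit only through the cauda, and in 2 of the 5 one arm did so only through the corpus. miR-210, the best known miRNA of the response to low oxygen, was chosen after its values were seen: miR-210-3p fell from 1012 and 836 CPM to 429, 359 and 308 CPM (-1.34, SE 0.14, limma FDR = 4.2e-05) and miR-210-5p from 293 and 213 CPM to 99.3, 82.5 and 99 CPM (-1.41, SE 0.21, limma FDR = 0.0003). Only 1 arm was called for 20 hairpins, and neither for 54. The median absolute difference between the arms was 0.30 on the log2 scale. The more abundant arm changed between regions in 7 hairpins, of which miR-339 is described, chosen after its values were seen. miR-339-5p rose from 14.2 and 13.8 CPM to 29.8, 26.5 and 32.4 CPM (1.06, SE 0.25, limma FDR = 0.0059), while miR-339-3p was at 28.4 and 29.5 CPM against 22.6, 12.9 and 24.8 CPM (-0.56, SE 0.30, limma FDR = 0.13).

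Seeds could be compared for the 292 of 341 miRNAs with a RefSeq sequence. Among these, 42 seeds were shared by at least 2 miRNAs, and in 6 of them at least 2 members were called (27.3% of all miRNAs were), always in a single direction. They were the seeds of miR-204-5p and miR-211-5p, of miR-17-5p and miR-106b-5p, of miR-34b-5p and miR-449a-5p, of miR-34b-3p and miR-34c-3p, and, in the X-linked cluster, of the miR-743a-3p and miR-743b-3p pair and of miR-743a-5p and miR-871-5p. Of these members, miR-211-5p passed the count limit only through the corpus and miR-743a-5p only through the cauda, where each was higher. Members of one seed that sit in 1 cluster share their locus and are not independent of each other.

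The step was also set against that in isolated epithelial cells, whose libraries were shallower, with 127111 and 89039 counts for the corpus against 283284 and 179060 for the cauda. Of 172 miRNAs measured in both preparations, 12 (6.98%) differed in their step by at least 2-fold at an FDR below 0.05. miR-143-3p did so most in the direction of a larger rise in whole tissue: its epithelial libraries were at 207559 and 198976 CPM in the corpus and at 317001 and 153137 CPM in the cauda, a step of 0.12 (SE 0.32), and the steps differed by 1.59 (SE 0.34, limma FDR = 0.013). This smooth muscle marker was thus the most abundant miRNA in the epithelial preparation of both regions. Step differences short of 2-fold, with limma FDRs of 0.013 to 0.024, were those of miR-204-5p (-0.80), miR-205-5p (-0.72), miR-30d-5p (-0.71) and let-7c-5p (0.65).

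The falls of miR-17-5p, miR-96-5p and miR-135a-5p in whole tissue were larger than their steps in epithelial cells. miR-17-5p was at 341 and 388 CPM in the epithelial corpus and at 302 and 415 CPM in the epithelial cauda (step -0.06, SE 0.28), and its steps differed by -1.32 (SE 0.28, limma FDR = 0.013). miR-200b-3p was at 5057 and 7008 CPM in the epithelial cauda and at 3838 and 4135 CPM in the epithelial corpus. That epithelial step of 0.58 did not pass (SE 0.21, limma FDR = 0.096). In whole cauda miR-200b-3p was lower, and its steps differed by -1.28 (SE 0.22, limma FDR = 0.0086). The count of 12 was 7 without epithelial corpus replicate 1, 6 without epithelial corpus replicate 2 and 7 without epithelial cauda replicate 2, and miR-17-5p was not called in any of these. The preparations also differed in the number of mice per pool and in the removal of spermatozoa, which cannot be told apart from the enrichment of epithelial cells.

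**Figure D5:**
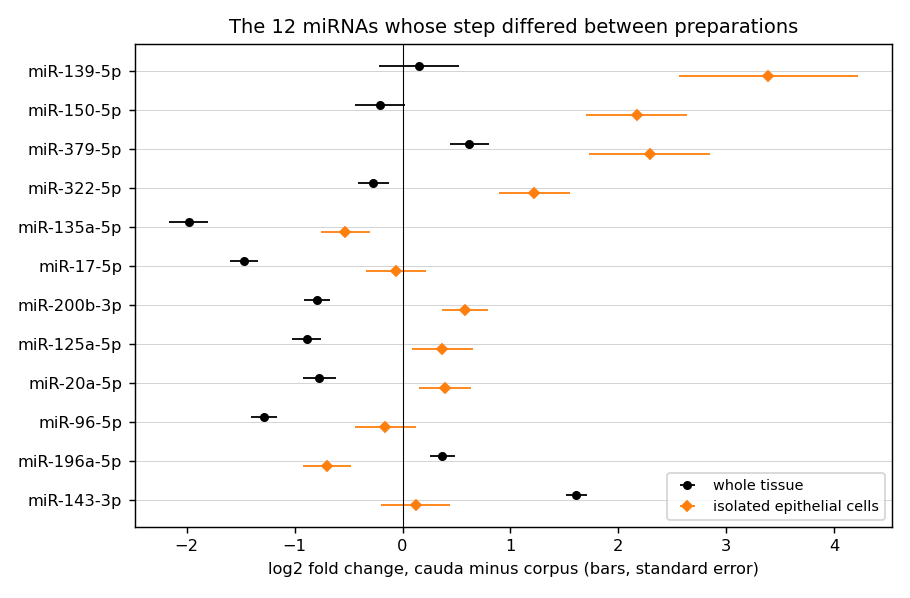
Log2 fold change from corpus to cauda in whole tissue (black circles) and in isolated epithelial cells (orange diamonds), with bars for 1 SE. Shown are the 12 miRNAs whose steps differed by at least 2-fold at an FDR below 0.05. Of the 12, miR-143-3p and miR-196a-5p lay higher in whole tissue and the other 10 lower.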

How the data were processed

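Small RNA libraries of whole epididymis and of isolated epithelial cells were prepared with the Illumina TruSeq kit and read as 50 bp single ends. Per the study's methods, reads were trimmed, aligned to mm10 and to mature miRNAs of miRBase 21, and summarised per miRNA. The submitters' processing notes name CASAVA 1.8.2, Bowtie 1.1.1 and limma. The authors deposited expected counts, not normalised, in which 3.00% to 4.00% of the corpus and cauda values carry a fraction. How reads matching several names were counted is not given in the sources used here. A constant of 0.001 in the epithelial table was removed. No column was left out.

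Expected counts were rounded and scaled by TMM (edgeR 4.0.16), computed on the miRNAs identified in any whole tissue region. The 8 whole tissue libraries were fitted with limma-voom (limma 3.58.1, R 4.3.3) with 1 mean per region, and cauda was compared with corpus over the 341 miRNAs with a mean count above 10 in either, with Benjamini-Hochberg adjustment. Calls required 2-fold or more at an FDR under 0.05. The step was compared between preparations in a joint fit of 14 libraries. Intervals of ratios of counts are exact, at 95%, and cover counting error but not the spread between libraries. The script was checked on simulated data.

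Named miRNAs were the 12 largest rises and 12 largest falls among called miRNAs whose libraries did not overlap and whose mean count was above 50 in the higher region, the 10 most abundant of each region, up to 4 of the most abundant members of each list, the 5 highest in 1 region alone and the 5 nearest the count limit on either side. Others named individually, including further members of the lists and the 12 whose steps differed, were chosen after their values were seen. The members and lists were chosen with earlier results of these data known. The methods describe 2 replicate pools per region and analysis of their libraries in triplicate without saying which deposited libraries share a pool, so p-values measure the spread between libraries, which may be technical. Alternatives were the tests of edgeR and DESeq2 1.42.0, other scalings and count limits, unrounded counts, the 5 libraries alone, a replicate block and leaving out each library.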

Additional observations from a re-analysis of the deposited data

Results flagged for a closer look

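In 12 of 172 miRNAs the step from corpus to cauda differed between whole tissue and isolated epithelial cells. The difference itself (whole tissue step minus epithelial step, on the log2 scale) was tested in limma and had to reach 2-fold at an FDR below 0.05. The difference was positive for miR-143-3p (1.59) and miR-196a-5p (1.15). It was negative for miR-139-5p (-3.16), miR-150-5p (-2.29), miR-379-5p (-1.59), miR-322-5p (-1.39), miR-135a-5p (-1.37), miR-17-5p (-1.32), miR-200b-3p (-1.28), miR-125a-5p (-1.16), miR-20a-5p (-1.06) and miR-96-5p (-1.04), with limma FDRs of 0.0086 to 0.029. Some of these rest on few epithelial counts. miR-139-5p had 0 and 0 counts in the epithelial corpus libraries and 8 and 16 in the cauda, so that its fitted step is no bound, and miR-379-5p had 2 and 1 against 25 and 16. miR-150-5p, a miRNA of lymphocytes, was at 138 and 71.5 CPM in the epithelial corpus and at 555 and 411 CPM in the epithelial cauda, a step of 2.17, against -0.21 in whole tissue.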

How the results depend on the processing

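The 93 calls numbered 68 to 116 over 9 other tests, scalings and count limits, and 75 to 100 as single libraries were left out. All 93 kept their direction in every setting that tested them, and 56 (23 that rose, 33 that fell) were called in each of these. Rises numbered 32 with at least 10 counts required in every library and up to 57 in the other settings with all libraries, and 31 to 53 as libraries were left out. Falls numbered 36 to 61 and 42 to 47. Of the named miRNAs that were not called, 4 turned direction. As libraries were left out, log2 fold changes ran from -0.93 to 0.37 for miR-9-5p, -0.45 to 0.02 for miR-150-5p, -0.12 to 0.43 for miR-139-5p and -2.06 to 2.03 for miR-465b-5p, the last of which was also at 1.45 by edgeR, 1.55 by DESeq2 and 1.06 with the replicate block. The step differed from that of epithelial cells for 6 to 13 miRNAs as libraries were left out. With the replicate number as a block, 101 miRNAs were called, 55 rising and 46 falling, and 13 differed in step. Deviations from the region means correlated by 0.254 and 0.111 in the 2 pairs of equal number. With 2 corpus libraries the deviations mirror each other, so this check cannot settle whether the numbers pair the samples. With 2 corpus libraries, leaving out either leaves 1, which was assumed to vary like the other regions. Scarce miRNAs were measured least precisely, with a median SE of 0.49 under 10 CPM and of 0.11 from 1000 CPM. The causes of these shifts were not tested.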
